A study of Mus musculus with 12 samples.

Results

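The retinal transcriptomes of immunized mice needled at the GB20 acupoint were compared directly with those of immunized mice needled at the control acupoint GV16. The comparison took the 3 GB20 and the 3 GV16 libraries, 6 of the 12 libraries sequenced, and no library of the unneedled immunized group (MOG) or of the sham control group (SHAM) entered the contrast. The filter, the scaling and the estimate of spread in the main fit used all 12 libraries, so MOG and SHAM libraries bear on the SE and p-values. Of 34538 genes with at least 1 count in any library, 18299 passed the filter on low counts and were tested. All mice were wild-type female C57BL/6 mice, 13 weeks old when the retinas were taken. The MOG, GB20 and GV16 groups had been immunized with the MOG35-55 peptide in complete Freund's adjuvant, followed by pertussis toxin, which produces experimental autoimmune encephalomyelitis (EAE) with optic neuritis (ON). Both needled groups were anesthetized with xylazine and ketamine and needled every 3 days, starting 3 weeks after immunization. The study's methods mention anesthesia for needling sessions, so both sides of the direct comparison were anesthetized. Whether the MOG and SHAM mice were anesthetized or handled in the same way is not stated in the methods. Each group in each of 3 repeats comprised a few mice, and the sources used here do not state whether a library pools their retinas, so the p-values below measure the spread between libraries. The time of day of sacrifice is not given in the sources used here.

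In Traditional Chinese Medicine GB20 is a paired point below the back of the skull that is needled for eye disease, and GV16 is a midline point at the nape that served as the control site. In EAE with ON, immune attack on the myelin of the optic nerve injures the axons of retinal ganglion cells (RGCs), the neurons that send the visual signal to the brain. Müller cells and microglia, which are among the glia of the retina, respond to such injury. The retina also runs its own circadian clock, in which CLOCK and BMAL1 bind E-boxes to drive clock output genes and the PER and CRY repressors.

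The count totals of the GB20 libraries ranged from 16338917 to 19194280 and those of the GV16 libraries from 15860278 to 16198995. CPM are library-scaled counts, the share of a library that falls on a gene. As a check of the tissue, the 12 genes on the list of cone photoreceptor markers summed to 2990 to 3020 CPM in the GB20 libraries and 2680 to 3280 in the GV16 libraries, and no library had a count on a Y-linked gene. Pearson's r of log2 CPM was 0.994 to 0.9952 for the 6 pairs of libraries within a site and 0.9936 to 0.9956 for the 9 pairs between the sites, with a median of 0.9946 for each kind of pair. The pairs that include GB20 replicate 2 had the lowest values, 0.9936 to 0.9942, and the other pairs started at 0.9943. Over all genes the sites were not separated by the distances between the 6 libraries (pseudo-F 0.942, p = 0.8, one-sided exact permutation test over the libraries, which with 3 against 3 cannot give a p below 0.1).

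Among the 18299 genes tested, 1 was a differentially expressed gene (DEG) of GB20 vs. GV16 at an adjusted p under 0.05 in edgeR's quasi-likelihood test, which is 0.00546% of the genes tested. The gene, Gpnmb, was lower at GB20, and 0 genes were higher. DESeq2 on the same 12 libraries called 5 genes, and limma-voom called 1. At an unadjusted p under 0.05 there were 536 genes (2.93%), 296 higher (1.62%) and 240 lower (1.31%) at GB20. The 3 GB20 values lay entirely above or entirely below the 3 GV16 values for 1527 genes (8.34%), 737 of them higher (4.03%) and 790 lower (4.32%) at GB20.

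**Figure D1:**
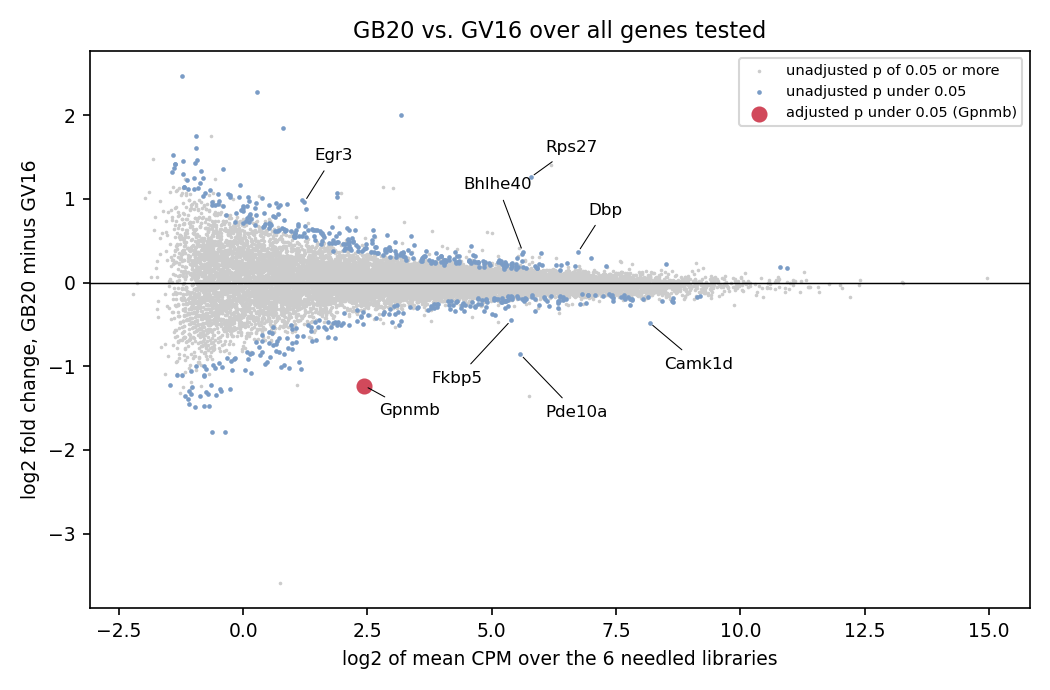
Each point is 1 of the 18299 genes tested, with the log2 of its mean CPM over the 6 needled libraries on the x axis and its log2 fold change, GB20 minus GV16, on the y axis. The red point is Gpnmb at -1.23, blue points are the other genes with an unadjusted p under 0.05, and most genes lie close to 0 with a spread that widens toward low CPM.

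Gpnmb (ENSMUSG00000029816) encodes a transmembrane glycoprotein of pigment cells and of macrophages and microglia. It lies on the plus strand of chromosome 6 from 49036546 to 49070929 (GRCm38), and its exons overlap no other gene. The 250 bases before its start in RefSeq (GRCm38.p6, chr6:49036268-49036517, plus strand) are shown because it was the single DEG. They hold no copy of the E-box CACGTG, a motif that was searched as those letters and reads the same on both strands.
Gpnmb: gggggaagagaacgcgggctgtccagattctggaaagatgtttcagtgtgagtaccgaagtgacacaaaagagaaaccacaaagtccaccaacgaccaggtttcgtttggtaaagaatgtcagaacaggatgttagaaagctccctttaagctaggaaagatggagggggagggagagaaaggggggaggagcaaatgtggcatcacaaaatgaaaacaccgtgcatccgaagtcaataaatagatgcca

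The GB20 libraries held 3.30, 2.80 and 3.59 CPM of Gpnmb, from 64, 46 and 59 counts. The GV16 libraries held 6.95, 9.13 and 6.75 CPM, from 112, 142 and 109 counts. The highest GB20 library was thus below the lowest GV16 library. Gpnmb fell by 1.23 on the log2 scale at GB20 relative to GV16 (SE 0.175, 95% interval -1.595 to -0.871, edgeR adjusted p = 0.00697), with a GV16 level 2.35-fold that of GB20. Its level was 3.08 ± 0.39 CPM in the SHAM libraries and 10.8 ± 1.45 in the MOG libraries (SD, n = 3 each). In the same fit Gpnmb was 1.73 lower in GB20 than in MOG on the log2 scale (edgeR adjusted p = 5.49e-06), and its GV16 vs. MOG value was -0.50 (edgeR adjusted p = 0.495). The call rested on each of 3 libraries, since the adjusted p was 0.0996 without GB20 replicate 1, 0.0871 without GB20 replicate 2 and 0.146 without GV16 replicate 2, with log2 fold changes of -1.25, -1.14 and -1.08.

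Markers of the cells that are known to express Gpnmb were examined beside it. Of the other 19 genes on the microglia and macrophage list, 17 were tested and 0 were called in edgeR, 0 had an unadjusted p under 0.05, and their median log2 fold change was -0.13. The summed CPM of those 17 genes was 65.8 to 83.8 at GB20 and 70.7 to 81.1 at GV16, against 75 to 78.7 in MOG and 48.5 to 56.8 in SHAM. Tmem119, a microglial surface protein, had 2.32, 2.13 and 2.68 CPM at GB20 and 3.54, 2.83 and 2.35 at GV16 (log2 fold change -0.29, SE 0.226). Cx3cr1, the fractalkine receptor, had a log2 fold change of -0.17 (SE 0.194). Of the 15 genes on the pigment epithelium and choroid list, 13 were tested and 0 were called, with a median log2 fold change of 0.02. Their summed CPM was 314 to 329 at GB20 and 293 to 354 at GV16. That sum includes Otx2, which is also on the bipolar cell list, and leaves out Mlana and Slc45a2, which did not pass the filter. It is therefore not a level of pigment cells alone. Every gene on both lists had at least 1 count in the 6 libraries. Neither list separated the sites in its summed level. The interval lay within 1 log2 unit of 0 for 13 of the 17 microglia and macrophage genes and for 9 of the 13 pigment genes. With Gpnmb included, 6 of 18 microglia and macrophage genes were above 0, against 50.3% of all genes. The median of that list ran from -0.20 to -0.04 over the 21 alternative fits, and that of the pigment list from -0.11 to 0.36. The lean of the microglia and macrophage list toward lower values at GB20 was not tested. In bulk retina, fewer cells of a type and less RNA per cell cannot be told apart.

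The next genes on the lower side by p were Camk1d, Fkbp5 and Pde10a, and none of them passed the adjusted threshold. Camk1d, a calcium/calmodulin-dependent protein kinase, had 228, 252 and 244 CPM at GB20 and 282, 353 and 374 at GV16. The groups did not overlap, and the log2 fold change was -0.48 (SE 0.0947, edgeR adjusted p = 0.305). Fkbp5, a co-chaperone of the glucocorticoid receptor whose own gene that receptor induces, had 29.9, 41.4 and 34.96 CPM at GB20 and 44.3, 51.6 and 49.1 at GV16. Its log2 fold change was -0.45 (SE 0.0998, edgeR adjusted p = 0.659), and its mean was 30.7 CPM in MOG and 26.8 in SHAM, below all 3 GV16 libraries. Pde10a, a phosphodiesterase that breaks down cAMP and cGMP, had 33.3, 34.1 and 34.3 CPM at GB20 and 69.3, 58.6 and 56.2 at GV16. The log2 fold change of Pde10a was -0.86 (95% interval -1.24 to -0.47, edgeR adjusted p = 0.9999). The GB20 values of Pde10a lay within 1.1 CPM of each other, while its SHAM libraries ranged from 24.1 to 45.5 CPM, and the SD was 0.563 at GB20 and 10.9 in SHAM. Fitted on the 6 needled libraries alone, edgeR called Pde10a (adjusted p = 1.31e-06), as did DESeq2 on all 12 libraries (adjusted p = 0.000192). DESeq2 on 12 libraries also called Camk1d (adjusted p = 0.0125).

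**Figure D2:**
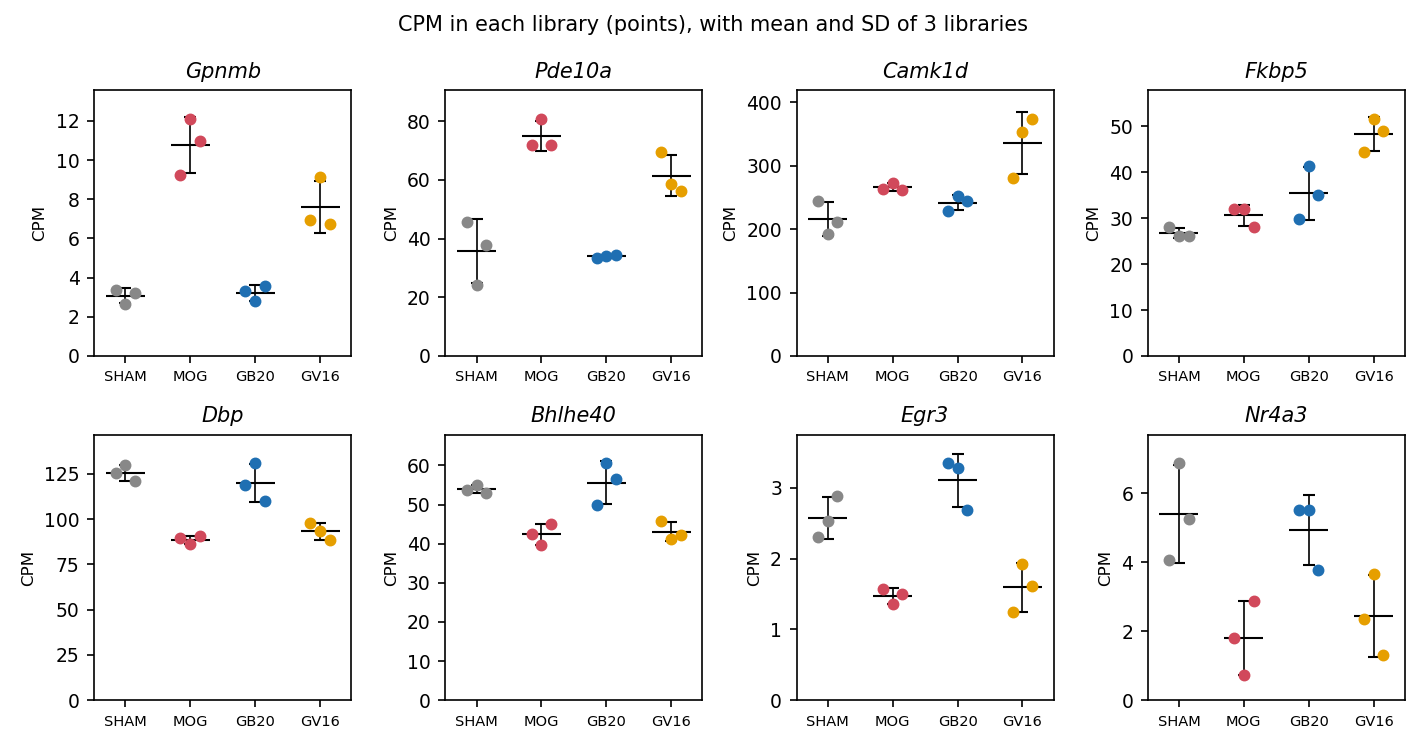
Points are the CPM of single libraries on the y axis (linear, from 0), by group on the x axis, with black lines for the mean and SD of 3 libraries. For Gpnmb and Pde10a the GB20 points lie at the SHAM level and the GV16 points lie between GB20 and MOG, while for Fkbp5 the 3 GV16 points, at 44.3 to 51.6 CPM, lie above every SHAM and MOG point.

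The remaining genes on the lower side with non-overlapping libraries and the smallest p-values included several of neuronal function, all with an edgeR adjusted p of 0.9999. Kcnma1, the pore subunit of the BK potassium channel, had 196, 187 and 214 CPM at GB20 and 232, 246 and 242 at GV16 (log2 fold change -0.27, SE 0.0846). Gabrr2, a subunit of a GABA receptor of bipolar cells, had 73.2, 73.8 and 77.9 CPM against 86.2, 87.3 and 89.0 (-0.22, SE 0.0679). Trim9, an E3 ubiquitin ligase of neurons, had 91.2, 103 and 103 CPM against 114, 115 and 127 (-0.26, SE 0.0787). All 3 differed by less than 0.3 on the log2 scale. The homeodomain gene Zfhx4 (-0.34), Fstl4 (-0.66), Card6 (-1.02), the long non-coding RNA Gm47469 (-0.95) and the processed pseudogene Gm9845 (-1.78) completed the 12 genes of that direction. The last 4 of these were low, at under 5 CPM in every needled library.

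On the higher side the leading genes by p were the clock genes Dbp and Bhlhe40 and the immediate-early gene Egr3. Dbp, a PAR-domain transcription factor whose gene is a direct clock output, had 119, 131 and 110 CPM at GB20 and 97.7, 93.2 and 88.7 at GV16. The libraries did not overlap, and the log2 fold change was 0.36 (SE 0.0721, edgeR adjusted p = 0.305). DESeq2 on 12 libraries called Dbp (adjusted p = 0.0134). Its exons overlap those of Sphk2 on the other strand over 18% of their length, and the counting's strand setting is not given in the sources used here, so reads of the 2 genes cannot be told apart there. Bhlhe40, a clock-controlled repressor, had 49.8, 60.6 and 56.5 CPM at GB20 and 45.8, 41.1 and 42.3 at GV16 (0.37, SE 0.0819, edgeR adjusted p = 0.659). Egr3, a zinc-finger factor induced by neuronal activity, had 3.35, 3.28 and 2.68 CPM at GB20 and 1.24, 1.93 and 1.61 at GV16. Its log2 fold change was 0.96 (95% interval 0.49 to 1.44, edgeR adjusted p = 0.9999).

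The other genes of the higher side all had an edgeR adjusted p of 0.9999. They included Acvrl1, an endothelial receptor of the TGF-beta family, with 7.98, 9.79 and 8.83 CPM at GB20 and 7.14, 4.76 and 5.95 at GV16 (log2 fold change 0.57). Cd300lf, an inhibitory receptor of myeloid cells, had 2.58, 1.95 and 2.07 CPM against 0.807, 1.67 and 0.991 (0.93). Isoc2b had a log2 fold change of 0.88, and the non-coding transcripts F630040K05Rik and Gm13029 had 0.35 and 0.56. Gm37811, at 0.63, shares 59.5% of its exon length with C1ql3, so its reads may belong to either. The processed pseudogenes Gm6374 (2.47) and Gm8319 (1.61) were under 1 CPM in all 6 libraries, and Gm6374 had 0 counts in GV16 replicate 2.

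Rps27, a protein of the small ribosomal subunit, stood among these genes with 70.3, 77.7 and 85.3 CPM at GB20 and 37.7, 32.5 and 27.2 at GV16 (log2 fold change 1.26, SE 0.256). Its near-identical copy on chromosome 9, Rps27rt, had 44.97, 29.4 and 15.7 CPM at GB20 and 67.2, 93.2 and 71.5 at GV16 (-1.36, SE 0.67). In the annotated transcripts, 91.1% of all 50-base stretches of Rps27rt also occur in Rps27, so the split of reads between the copies is uncertain. The differences of the copies had opposite signs. Summed, they had 115, 107 and 101 CPM at GB20 and 105, 126 and 98.8 at GV16, with overlapping groups and a log2 fold change of -0.03 (95% interval -0.34 to 0.29). The sum was formed after the values of both genes had been seen.

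**Figure D3:**
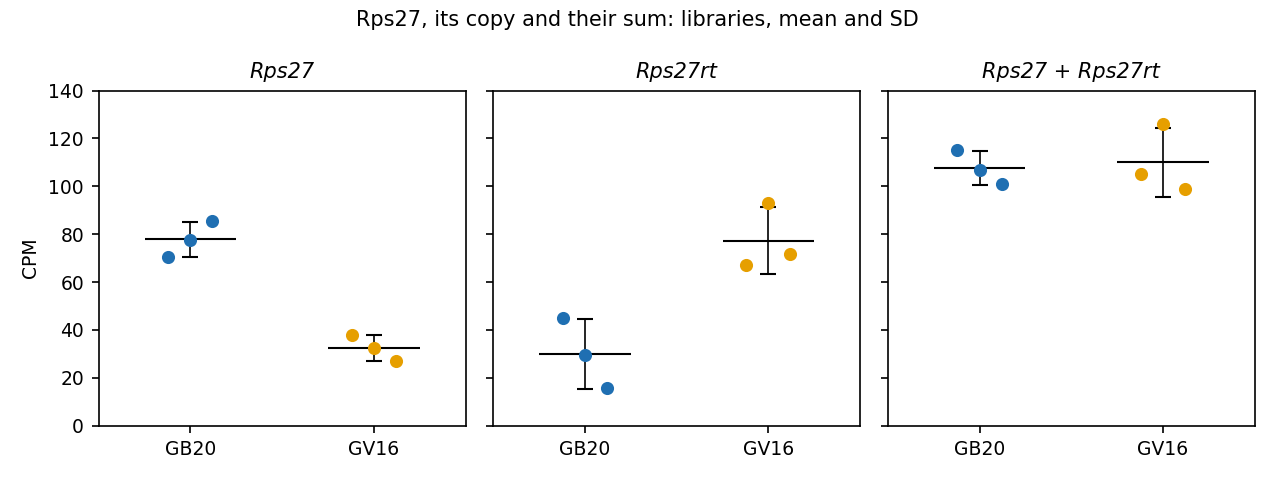
Points are the CPM of single libraries (y axis, linear from 0) at GB20 and GV16 for Rps27, for its copy Rps27rt and for their sum, with black lines for the mean and SD of 3 libraries. Rps27 is higher and Rps27rt lower at GB20, and the summed means are 108 and 110 CPM.

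The genes of the clock and of the lists below each had an edgeR adjusted p of 0.9999, apart from those given above, so their values are printed with an SE or interval. The clock genes were taken in 2 arms. In the output arm, which holds the PER and CRY repressors and the genes that CLOCK and BMAL1 drive through E-boxes, all 16 genes were tested and 0 were called in edgeR. Their median log2 fold change was 0.06 against 0.00097 for all genes tested, 13 of the 16 were above 0 against 50.3% of all genes, and 4 had an unadjusted p under 0.05 against 2.93% of all genes. Those 4 were Dbp, Bhlhe40, Ciart and Per1. The study had reported circadian terms for GB20 vs. MOG from the same GB20 libraries, and these 4 genes were called in GB20 vs. MOG here. The list was not chosen independently of those libraries, so nothing is read from the difference to all genes. Ciart, a repressor of CLOCK and BMAL1 activity, had 21.3, 24.3 and 18.7 CPM at GB20 and 14.96, 19.9 and 15.1 at GV16. Its groups overlapped, and its log2 fold change was 0.36 (SE 0.124). Per1, a core repressor, had 132, 160 and 131 CPM at GB20 and 104, 128 and 113 at GV16, which did not overlap (0.29, SE 0.104). Per2, the other main repressor of that pair, had 45.7, 51.3 and 49.6 CPM against 51.2, 40.1 and 47.7, and its log2 fold change of 0.08 had a 95% interval from -0.15 to 0.30. All 16 intervals of this arm lay within 1 log2 unit of 0.

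The promoters of Ciart and Per1 are shown because both genes are in the E-box-driven arm and their RefSeq windows hold the motif. The sequences are the 250 bases before an annotated RefSeq start of each gene (GRCm38.p6), 5′ to 3′, with the E-box CACGTG in capitals. The Ciart window is at chr3:95882229-95882478 on the minus strand and the Per1 window at chr11:69098699-69098948 on the plus strand. In GENCODE the Ciart gene spans 95878503 to 95882251 and the Per1 gene 69095217 to 69109960. The Ciart window thus overlaps the 5′ end of that span, and the Per1 window lies within it.
Ciart: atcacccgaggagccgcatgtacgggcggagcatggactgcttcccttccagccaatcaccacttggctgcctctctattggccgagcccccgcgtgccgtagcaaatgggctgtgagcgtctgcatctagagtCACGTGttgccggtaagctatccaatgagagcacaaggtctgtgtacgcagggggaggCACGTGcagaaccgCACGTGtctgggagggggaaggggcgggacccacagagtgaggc
Per1: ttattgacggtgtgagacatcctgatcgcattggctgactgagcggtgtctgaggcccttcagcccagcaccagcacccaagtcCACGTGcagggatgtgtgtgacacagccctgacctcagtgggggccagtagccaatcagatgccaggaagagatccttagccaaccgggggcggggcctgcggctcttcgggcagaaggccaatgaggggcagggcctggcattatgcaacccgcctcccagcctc
The Ciart window holds 3 copies, which begin 116, 58 and 44 bases before the start, and the Per1 window shown holds 1, which begins 166 bases before it. A second annotated start of Per1 has a window with 0 copies. Of all 32851 windows of this length, 6.02% hold the motif. The windows of Dbp, Pde10a and Camk1d have no copy, the Fkbp5 window has 1, and Bhlhe40, Per2 and Egr3 have no window in the table.

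In the BMAL1 arm, 9 genes were tested and 0 were called, 4 of 9 log2 fold changes were above 0, and the median was -0.02. Arntl, which encodes BMAL1, had 90.6, 103 and 99.8 CPM at GB20 and 107, 111 and 103 at GV16. Its groups did not overlap, and the log2 fold change was -0.13 (SE 0.0672). Of the 12 tested genes of the dopamine and melatonin rhythm list, Pde10a was the member with the smallest p, and the list's median was 0.05. Th, the rate-limiting enzyme of dopamine synthesis, had a log2 fold change of -0.35 (SE 0.213).

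Immediate-early genes, which neurons and glia switch on within minutes of a stimulus, had the largest median of the lists with 10 or more genes tested. Of 19 tested genes 17 had a log2 fold change above 0, the median was 0.29, and 0 were called. Of all genes tested, 50.3% were above 0. The median ran from 0.19 without GB20 replicate 2 to 0.38 without GB20 replicate 3. The 4 of 19 with an unadjusted p under 0.05 (2.93% of all genes) were Egr3, Nr4a3, Ier2 and Jund, and these were also the 4 whose libraries did not overlap (8.34% of all genes). This list was also chosen with earlier results of these data known, so nothing is read from these differences. Nr4a3, an orphan nuclear receptor, had 5.51, 5.53 and 3.78 CPM at GB20 and 2.36, 3.67 and 1.30 at GV16, so the lowest GB20 library was only just above the highest GV16 library. Its log2 fold change was 1.02 with a wide 95% interval from 0.19 to 1.85, and it was called when genes with low counts were kept (edgeR adjusted p = 0.0239). Ier2 had 20.1, 26.4 and 18.9 CPM against 17.0, 18.8 and 16.8 (0.31, SE 0.124). Jund had 40.1, 48.2 and 37.1 CPM against 36.9, 36.5 and 32.2 (0.25, SE 0.108). Fos, a founding member of the group, had a mean of 31.7 ± 8.83 CPM at GB20 and 24.1 ± 0.589 at GV16 (0.39, SE 0.344). The summed level of the list was 470, 514 and 396 CPM at GB20 and 388, 398 and 377 at GV16. It was 369 to 610 in the SHAM libraries, a range wider than the gap between the sites.

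**Figure D4:**
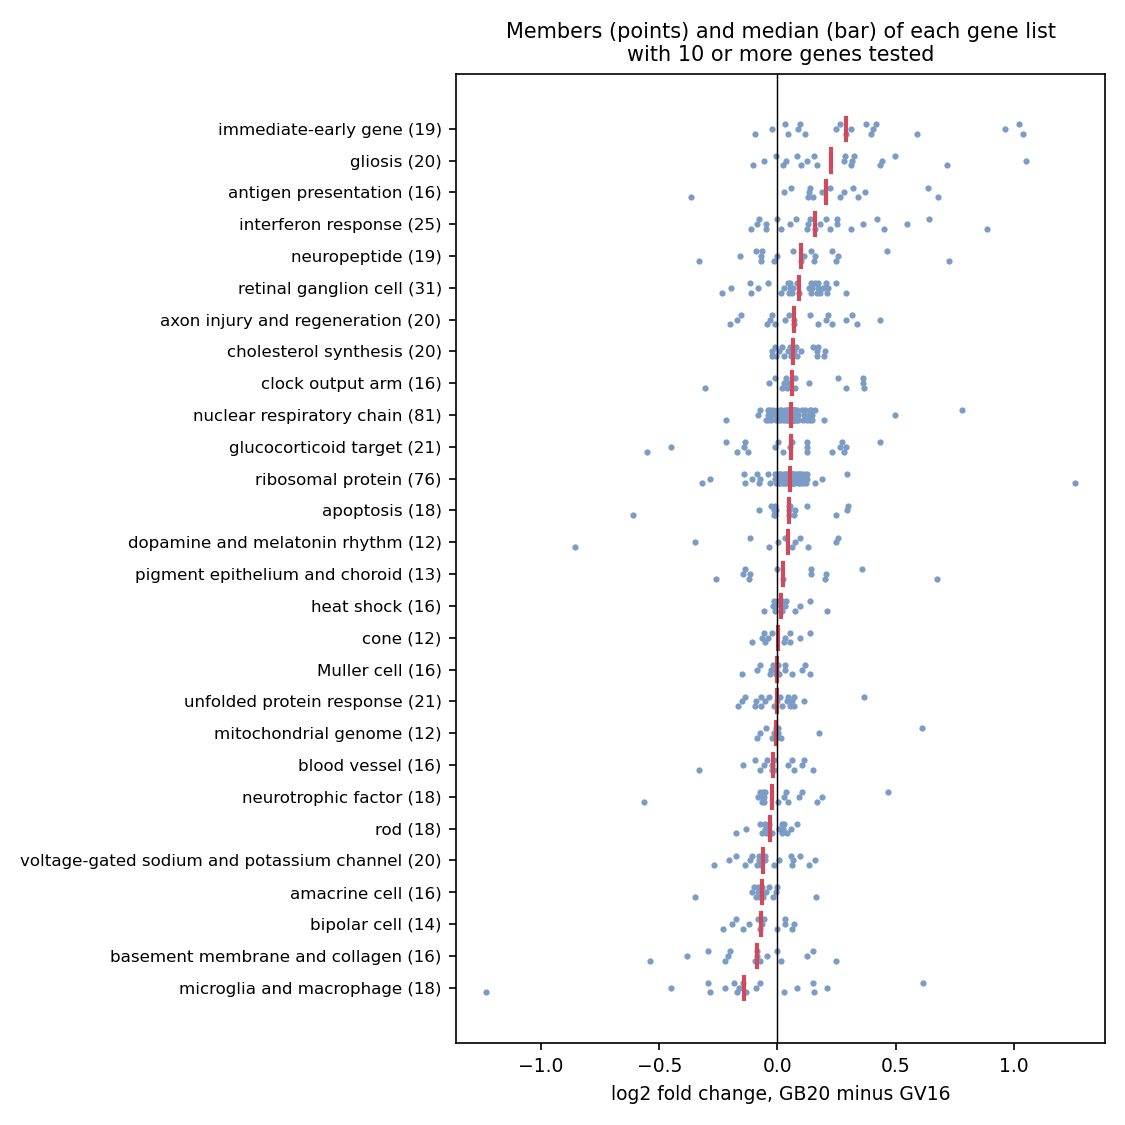
Points are the log2 fold changes (x axis, GB20 minus GV16) of the tested members of each gene list with 10 or more genes tested, with the number tested in brackets and a red bar at the median. Medians run from -0.14 for microglia and macrophages to 0.29 for immediate-early genes, and the Gpnmb point of the microglia and macrophage list lies apart at -1.23.

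Over all 38 lists, 639 genes were tested and 1, Gpnmb, was called. Counts of list members above 0 stand beside 50.3% of all genes tested. For the RGC markers, 31 genes were tested, 25 were above 0 and the median was 0.09. Sncg, or gamma-synuclein, which labels RGCs, had 52.9, 49.0 and 48.5 CPM at GB20 and 49.5, 39.7 and 33.9 at GV16. Uchl1, a neuronal deubiquitinase, had 82.5, 94.4 and 95.5 CPM against 86.5, 80.0 and 68.2. In both genes GV16 replicate 1 lay within or above the GB20 range and the groups overlapped. Their log2 fold changes were 0.29 (SE 0.115) and 0.21 (SE 0.0934). Exons of Uchl1 overlap those of Uchl1os on the other strand over 18.1% of their length, so the limit given for Dbp holds here too. Tppp3, a tubulin-binding protein of RGCs, had 54.9, 50.4 and 49.0 CPM against 55.1, 42.4 and 39.7 (0.17, SE 0.126). The summed RGC level was 1340 to 1370 CPM at GB20 and 1160 to 1460 at GV16, so the spread lay in the GV16 libraries, and the RGC median was 0.22 without GV16 replicate 1 and 0.02 without GV16 replicate 3. Of the 5 neurofilament genes 0 were called, and Nefl, the light chain, had 173 ± 4.86 CPM at GB20 and 161 ± 30.6 at GV16 (0.10, SE 0.103). Exons of Nefl overlap those of Nefm on the other strand over 32.8% of their length, with the same limit. The 20 axon injury and regeneration genes had a median of 0.07 and 0 calls.

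Among the markers of other retinal neurons 0 genes were called. Of 16 amacrine markers 1 was above 0, with a median of -0.07 and no member under an unadjusted p of 0.05. Of 14 bipolar markers 4 were above 0 and the median was -0.07. On the lower side, 2 of the 14 had an unadjusted p under 0.05 (2.93% of all genes had one in either direction). The libraries of 3 did not overlap (8.34% of all genes). Vsx1, a homeodomain factor of cone bipolar cells, had 31.8, 34.3 and 34.5 CPM at GB20 and 43.2, 36.1 and 38.8 at GV16 (-0.23, SE 0.0892). Of 7 horizontal cell markers 2 were above 0 and the median was -0.05. The lowest value of that list was that of Onecut1, a horizontal cell factor, with 2.68, 2.25 and 2.68 CPM against 5.15, 3.02 and 3.78 (-0.65, SE 0.291). The medians were -0.03 over 18 rod genes, 0.00 over 12 cone genes and 0.00 over 16 Müller cell genes, and every gene of these 3 lists had a 95% interval within 1 log2 unit of 0.

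The gliosis list had a median of 0.23 with 17 of 20 genes above 0 and 0 calls, and the median ran from 0.07 without GV16 replicate 2 to 0.40 without GV16 replicate 3. Cd44, a hyaluronan receptor of reactive Müller cells, had 13.7, 12.9 and 10.6 CPM at GB20 and 8.94, 7.84 and 10.6 at GV16, with GB20 replicate 3 and GV16 replicate 3 nearly equal (0.44, SE 0.135). Gfap, the intermediate filament of reactive glia, had 62.5, 53.0 and 38.2 CPM against 40.2, 34.8 and 48.7, and its log2 fold change of 0.31 had a 95% interval from -0.05 to 0.67. Fgf2, a growth factor of stressed retina, had 56.0, 49.2 and 47.9 CPM against 44.1, 41.5 and 50.8 (0.17, SE 0.0983). Its exons overlap those of Nudt6 on the other strand over 13.2% of their length. For the interferon response, 19 of 25 genes were above 0 with a median of 0.16, and Isg15, a ubiquitin-like protein, had 4.17, 2.74 and 2.62 CPM against 1.99, 1.86 and 2.29 (0.64, SE 0.283). For antigen presentation, 15 of 16 were above 0 with a median of 0.21, and Nlrc5, which switches on class I genes, had 3.76, 2.37 and 1.83 CPM against 1.37, 1.54 and 2.11 (0.68, SE 0.287). GB20 replicate 1 was the highest of the 6 libraries for Cd44, Isg15 and Nlrc5, and without that library the median was -0.06 for the interferon response and -0.11 for antigen presentation, so the direction of both lists turned. Over the other fits that left out 1 library these medians reached 0.30 and 0.37. Of 12 T cell genes 2 could be tested and of 9 neutrophil genes 1, with 0 calls.

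The basement membrane and collagen list leaned the other way, with 4 of 16 genes above 0 (50.3% of all genes), a median of -0.09 and 0 calls. The median was -0.02 without GV16 replicate 3 and -0.16 without GV16 replicate 2, and with length offsets it lay between these values. Col4a1, a chain of the type IV collagen of basement membranes, had 32.7, 38.3 and 36.1 CPM at GB20 and 42.4, 40.6 and 41.9 at GV16, which did not overlap (-0.22, SE 0.0944). Lama1, a laminin chain of the inner limiting membrane, had 10.1, 9.67 and 11.0 CPM against 12.5, 11.2 and 13.8 (-0.29, SE 0.131). Among 21 glucocorticoid targets 0 were called in edgeR. An unadjusted p under 0.05 (2.93% of all genes) was found for 3 on the higher side and for 1, Fkbp5, on the lower side. Errfi1, an inhibitor of the EGF receptor, had 34.7, 33.1 and 31.8 CPM at GB20 against 29.2, 29.1 and 26.5 at GV16 (0.23, SE 0.0828). That list's median was 0.06. The unfolded protein response (21 genes) and heat shock (16 genes) lists had medians of 0.00 and 0.02, and every interval of both lay within 1 log2 unit of 0.

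Ribosomal protein genes had a median of 0.05 with 60 of 76 above 0, and nuclear respiratory chain genes had 0.06 with 66 of 81 above 0. Each list held 1 gene with an unadjusted p under 0.05, namely Rps27 and Cox7a1, and 0 were called. These genes are short. Several genes named on the lower side have a long exon length, such as Kcnma1 (16976 bases), Zfhx4 (15737), Trim9 (14203) and Pde10a (12849). Others of that side, such as Gabrr2 (2105) and Gm9845 (598), do not. Across 12271 genes the log2 fold change ran with exon length (Spearman's rank correlation -0.348, a description across genes, which are not independent). The libraries of a site did not share that slope, since a library's deviation ran with length at -0.305, -0.342 and 0.291 in the GB20 libraries and at 0.228, -0.104 and 0.306 in the GV16 libraries. With length offsets in the fit the medians were 0.02 for ribosomal and 0.01 for respiratory genes. They were 0.27 for immediate-early genes and 0.08 for the clock output arm, against 0.29 and 0.06 without offsets.

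The direct contrast was then set beside the comparisons of each site with MOG, which share the needled libraries with it and share the MOG libraries with each other. In the fit on 12 libraries, 44 genes (0.24%) were called in GB20 vs. MOG and 30 (0.164%) in GV16 vs. MOG, of which 23 were called at both sites, 21 at GB20 only and 7 at GV16 only. Of the 21 genes called at GB20 only, 1 was called between the sites, 10 had an unadjusted p under 0.05 and 11 had a direct 95% interval that spanned 0. The share of all genes with an unadjusted p under 0.05 was 2.93%, but the 21 genes were selected on the same GB20 libraries by a call at 1 site and not the other, so nothing is read from the difference. MOG vs. SHAM gave 245 DEGs (1.34%). Among the 21 genes, the 11 that were also DEGs of MOG vs. SHAM with the opposite sign included 1 called between the sites and 3 whose interval spanned 0. Of these 11, 8 had an unadjusted p under 0.05 (2.93% of all genes) and 9 had non-overlapping libraries (8.34% of all genes). The same selection applies to them, so nothing is read from these shares. One of those whose interval spanned 0 was Dpy19l3. It was called against MOG at GB20 (log2 fold change -0.50, edgeR adjusted p = 0.0283) and not at GV16 (-0.38, edgeR adjusted p = 0.259). Its direct value was -0.12 with a 95% interval from -0.34 to 0.09, and its libraries did not overlap. Prr5 had 6.80, 7.42 and 7.74 CPM at GB20 and 5.15, 5.92 and 5.20 at GV16 (0.43, SE 0.147). For Dbp the values against MOG were 0.43 at GB20 (edgeR adjusted p = 0.00554) and 0.07 at GV16 (edgeR adjusted p = 0.998).

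Of the 7 genes called at GV16 only, 0 were called between the sites, and 3 (Fkbp5, Gm13029 and Folh1) had an unadjusted p under 0.05. Folh1, or folate hydrolase, had 25.6, 27.7 and 30.2 CPM at GB20 and 28.6, 40.4 and 38.8 at GV16 (-0.37, SE 0.133), with means of 13.2 in SHAM and 20.3 in MOG. Of the 23 genes called at both sites, 0 were called between the sites, 21 intervals spanned 0 and 22 lay within 1 log2 unit of 0. The 2 whose interval did not span 0 were Ciart and Crym, a thyroid hormone-binding protein with 47.6, 49.8 and 40.8 CPM at GB20 and 38.6, 41.5 and 37.6 at GV16 (0.23, SE 0.0822). Hkdc1, a hexokinase-like enzyme, had 7.47, 8.69 and 7.49 CPM against 8.26, 8.04 and 10.3, beside a mean of 21.4 in MOG and 10.1 in SHAM. Prss56, a serine protease of Müller cells, had 7.42, 6.99 and 5.60 CPM against 3.79, 5.47 and 6.19, beside a mean of 19.8 in MOG (direct log2 fold change 0.38, 95% interval -0.00 to 0.76). Slc5a8, a monocarboxylate transporter, had a direct log2 fold change of 0.02 (SE 0.122). Ecel1, a peptidase of injured neurons, had -0.17 (SE 0.192). Oas2, an interferon-induced enzyme at under 1 CPM in all 6 libraries, had 0.89 with a 95% interval from -0.27 to 2.05.

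**Figure D5:**
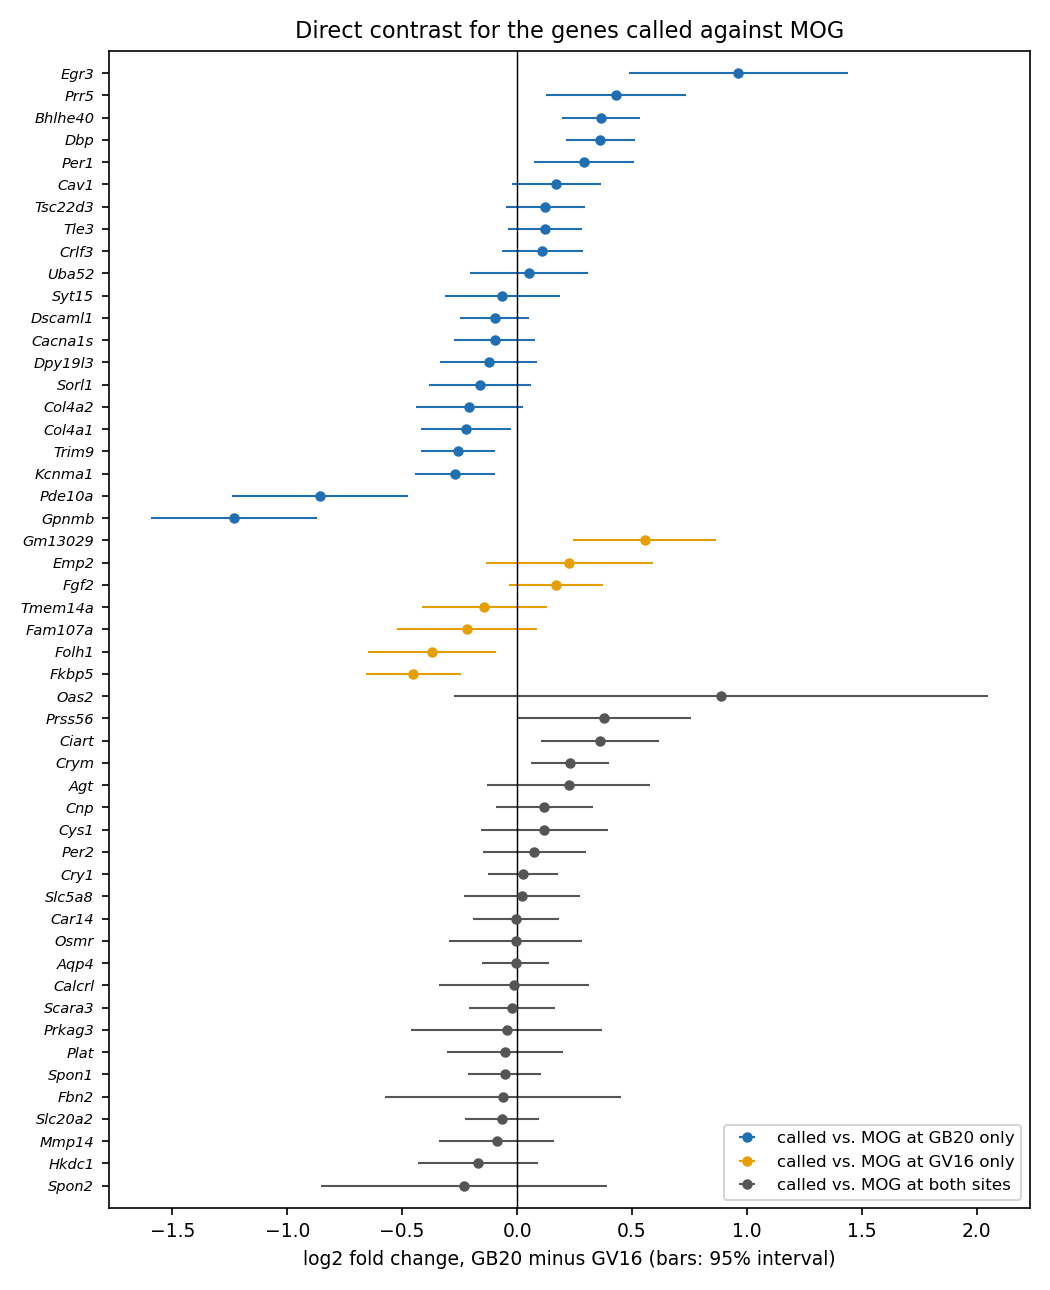
Points are the direct log2 fold changes (x axis, GB20 minus GV16) of the 51 genes called against MOG, with bars for the 95% interval. Among genes called at GB20 only (blue), 11 of 21 intervals cross 0, and among genes called at both sites (grey) 21 of 23 do, while Gpnmb and Pde10a lie farthest to the left.

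The precision of the contrast set what it could show. The median absolute log2 fold change was 0.0822 and the median SE 0.123. The 95% interval lay within 1 log2 unit of 0 for 15668 genes (85.6%) and within 0.5 for 11796 (64.5%). For the 10565 genes with a mean of at least 10 CPM those shares were 99.7% and 97.0%, and for the 2259 genes under 1 CPM they were 16.6% and 0%.

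The genes with the largest fold changes among those with a mean of at least 1 CPM were named after their values had been seen. Rps27rt, given above, was among them. The values of Gm14434 and Gapdh came from single libraries. Gm14434 had 8.82 CPM in GV16 replicate 1 and 0.103 to 0.548 in the other 5 needled libraries (log2 fold change -3.58, 95% interval -8.73 to 1.56). Adamts13, a protease that cleaves von Willebrand factor, had 4.43, 1.46 and 0.122 CPM at GB20 and 0.310, 0.643 and 0.310 at GV16 (2.28, SE 0.988). Nfatc1, a calcium-dependent transcription factor, had 5.41, 1.76 and 1.03 CPM against 0.745, 0.322 and 1.24 (1.84, SE 0.558). Gapdh, a glycolytic enzyme with many pseudogenes that can share its reads, had 236 CPM in GB20 replicate 3 and 35.6 to 47.3 in the other 5 (1.40, SE 0.703). The pseudogene Rpl34-ps1 had 4.74, 21.2 and 17.7 CPM against 3.23, 4.69 and 2.85 (2.01, SE 0.613). The edgeR adjusted p of each was 0.9999, and Nfatc1 was called when genes with low counts were kept (edgeR adjusted p = 0.000571).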

How the data were processed

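Retinal poly-A RNA from 12 libraries (3 each of SHAM, MOG, GB20 and GV16) was sequenced as paired ends. Alignment to mm10 with HISAT2 2.0.5 and gene-level counting with featureCounts were done by the authors. The deposited values are raw counts and the FPKM that the authors derived from them and from gene length. Their annotation release and strand setting were not found in the labels or methods. Groups and replicate numbers were taken from the sample titles. Of 54532 gene identifiers, 54495 were matched to GENCODE vM21 for symbols, positions and lengths, and the other 37 held 0.0115% of counts.

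The deposited counts were filtered with filterByExpr, scaled by TMM and fitted with edgeR 4.0.16 (glmQLFit with robust estimation, glmQLFTest, two-sided) on all 12 libraries with 1 mean per group and 8 residual degrees of freedom. The contrast was GB20 minus GV16, and p-values were adjusted by Benjamini-Hochberg over all 18299 genes tested, with a threshold of 0.05. CPM are TMM-scaled. Alternatives used DESeq2 1.42.0 (the study's tool), limma-voom (limma 3.58.1), other scalings and filters, the 6 needled libraries alone, a replicate block, offsets for exon length, the deposited FPKM as log2(FPKM + 1) in limma, and the removal of each library in turn. Lists are described by counts and medians beside all genes, without a set test. Named genes were the DEG, the genes with the smallest p among those with non-overlapping libraries up to 12 per direction, up to 4 members per list, genes discussed by the study, and genes that only 1 site reversed. Members and lists were chosen with earlier results of these data known. The scripts were tested on simulated data, and each promoter window comes from RefSeq (7 of 10 genes looked up had one). R 4.3.3 and Python were used. No column of the authors' own comparisons was used. Some genes are not reported here.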

Additional observations from a re-analysis of the deposited data

Results flagged for a closer look

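Gpnmb was singled out because its change relative to MOG differed between the needling sites by the direct test. The difference, GB20 minus GV16, was -1.233 on the log2 scale (edgeR adjusted p = 0.00697), with a GB20 vs. MOG value of -1.73 and a GV16 vs. MOG value of -0.50. All 3 GB20 libraries lay below all 3 GV16 libraries. Each group held 3 samples, too few for the check of single outlying values within a group. The summed levels of the other microglia and macrophage genes and of the pigment genes overlapped between the sites, and their part in the Gpnmb result was not tested.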

How the results depend on the processing

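The count of DEGs between the sites, 1 in the fit reported, stayed at 1 with RLE or upper quartile scaling, a filter of at least 1 CPM in 3 libraries, limma-voom, length offsets and with Rps27 and Rps27rt summed, and Gpnmb was the gene called in the first 5 of these. It was 8 with every counted gene kept, 5 under DESeq2 on 12 libraries, 4 under DESeq2 on 6, 3 with edgeR on 6 and 0 with FPKM, where 603 genes had an unadjusted p under 0.05. Among list members the calls were 5, 4, 3, 3 and 0 in these fits. With every counted gene kept, 1075 genes had an unadjusted p under 0.05 and 2445 had non-overlapping libraries. Gpnmb was called in 22 of 26 fits, Pde10a in 7, Camk1d in 6, Rps27 in 5, Dbp in 3, Fkbp5 in 2 and Nr4a3, Nfatc1 and Gm4149 in 1 each (the fit with every counted gene kept), and with FPKM the value for Gpnmb was -0.53 on the log2(FPKM + 1) scale (limma adjusted p = 0.239). The Rps27 value of 1.26 became -0.03 once its copy was added.

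Leaving out 1 library at a time gave 0 to 4 DEGs, 477 to 835 genes at the unadjusted threshold, 0 to 3 calls among list members and 2971 to 4119 genes without overlap (fewer libraries overlap less by construction). There were 0 DEGs without GB20 replicate 1, GB20 replicate 2 or GV16 replicate 2, with 477, 497 and 675 genes at the unadjusted threshold, and 4 without SHAM replicate 2. The highest unadjusted count, 835, came without GB20 replicate 3. Genes called against MOG at GB20 only ran from 4 to 56, at GV16 only from 1 to 12 and at both sites from 9 to 27, and DESeq2 gave 33, 19 and 24. The highest of these, 56, came without SHAM replicate 2, and the lowest, 4, without MOG replicate 2. The causes were not tested. The pseudo-F between the sites ran from 0.873 to 1.05.

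Whether replicate numbers mark the study's repeats is not stated in the sources used here, and they were not treated as pairs: same-numbered GB20 and GV16 libraries correlated at -0.139, 0.0336 and 0.0686 in their deviations from the group means, and GB20 replicates 1 and 3 correlated best with a GV16 library of another number. These correlations do not settle the pairing. With the replicate block the count of DEGs was 1 on 12 libraries and 5 on 6 libraries, with 720 and 645 genes at the unadjusted threshold and 1 and 4 calls among list members, and genes called against MOG numbered 44 at GB20 only, 18 at GV16 only and 29 at both sites.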
